A study of Mus musculus with 8 samples.

Results

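The transcription factors Lhx6, Sox6, Satb1, Maf, Dlx1, Dlx2, Dlx5 and Dlx6 act in the lineage of cortical interneurons born in the medial ganglionic eminence (MGE). They were taken by gene symbol, and all 8 were found among the 56576 genes of the deposited table. The table holds RNA bound to tagged ribosomes of synaptosomes (pinched-off synaptic terminals with attached postsynaptic parts) from mouse cerebral cortex at postnatal day 15. Ribosomes were pulled down with anti-HA beads, for 4 libraries from controls of genotype Lhx6-Cre;Erbb4+/+;Rpl22HA/HA and for 4 from mutants of genotype Lhx6-Cre;Erbb4F/F;Rpl22HA/HA, each a biological replicate. Both genotypes carried Lhx6-Cre and the HA-tagged ribosomal protein gene Rpl22, and they differed in the loxP-flanked Erbb4 alleles. Cre was driven by regulatory sequence of Lhx6, which is itself among the 8 genes, so the pulldown was aimed at cells with a history of Lhx6 expression. No fraction from before the pulldown was analysed here, so values say how much of each RNA was recovered and not whether it was enriched. Values are normalized counts, that is read counts divided by a size factor for each library. A library's sum of values was 51010687 to 80226984 times its smallest value above 0 in controls and 58967504 to 74609576 times in mutants. Counting error was not measured.

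MGE-derived interneurons become the parvalbumin (PV) and somatostatin (SST) interneurons of the cortex. Lhx6 is a LIM-homeodomain factor switched on as these cells leave the cell cycle and kept on in the adult, and it is needed for their migration and for their PV and SST fates. Sox6, an HMG-box factor, and Satb1, a chromatin organizer, act downstream of Lhx6 in maturation, and Maf is a basic leucine zipper factor of the same lineage. The Dlx genes encode homeodomain factors shared by interneurons of all ganglionic eminences and lie in pairs, Dlx1 with Dlx2 and Dlx5 with Dlx6. They are known to promote the expression of genes for GABA synthesis.

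Erbb4, the receptor gene that was deleted, had normalized counts of 1640, 5377, 4306 and 3034 in control replicates 1, 3, 4 and 5. It had 1711, 1648, 1233 and 1048 in mutant replicates 2, 3, 4 and 5. The library labelled control replicate 1 thus lay below mutant replicates 2 and 3, while the other 3 controls lay above all mutants. The log2 difference, mutant minus control on the log2(normalized count + 1) scale, was -1.25 (standard error 0.34, limma p = 0.0041, adjusted p = 0.58 with Benjamini-Hochberg adjustment over 31171 genes, exact permutation p = 0.086), and -1.58 without the library labelled control replicate 1. The difference met the call rule used throughout, a limma p no higher than 0.05 before adjustment together with a change of 1.5-fold or more, and did so under each of 20 other settings. Rpl22, which carries the tag, averaged 828.1 ± 370.7 normalized counts over controls (SD, n = 4) and 572.1 ± 128.7 over mutants (SD, n = 4), for a log2 difference of -0.47 (95% interval -1.18 to 0.25). The Rpl22 difference moved to -0.20 without the library labelled control replicate 1, where Rpl22 had 1358 normalized counts.

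None of the 8 lineage factors met the call rule in the limma fit of genotype alone over all 31171 genes whose normalized counts averaged 10 or more in either genotype. All 8 passed that filter. The count of members called lower was 0 of 8, where 3.17% of all genes tested were called lower, and the count called higher was 0 of 8, where 3.98% were called higher. Without the library labelled control replicate 1 the count called lower was also 0, with a median log2 difference of -0.50, and it was 3 without control replicate 5, 2 without mutant replicate 2 and 1 without mutant replicate 3, where 6.35%, 3.81% and 3.78% of all genes tested were called lower. No member had a limma p under 0.05 before adjustment. Adjusted p-values of the members ran from 0.58 to 0.95 (limma with Benjamini-Hochberg adjustment). All 8 log2 differences lay below 0 as deposited, with a median of -0.46 beside 0.06 over all genes tested, although Maf and Dlx6 turned to 0.08 and 0.02 when libraries were scaled to their totals. Of all genes tested, 46.6% lay below 0.

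The scale chosen for the libraries bears on these directions. As deposited, 988 genes were called lower and 1241 higher, so 44.3% of calls were lower. On that scale other settings moved the share from 31.9% (without control replicate 3) to 54.3% (with a replicate block). Scaling each library to its total, chosen after the data were seen, gave 417 lower and 2263 higher (15.6% lower) and moved the median of all genes to 0.24. Upper-quartile scaling, also chosen later, gave 760 lower and 1522 higher (33.3% lower) and a median of 0.11. Such a scaling moves all genes of a library alike, so the distance of the members' median from that of all genes, -0.52, was bound to stay the same.

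The study's supplement speaks of a pair of sequencing batches, and the labels do not say which library was in which. Deviations from genotype means correlated above 0 for all 8 control and mutant pairs within the sets of replicate numbers 1 to 3 and 4 to 5 (0.023 to 0.10 over the genes tested) and below 0 for all 8 pairs across them (-0.115 to -0.029). Whether these sets are the batches is not known. With the set as a covariate in the limma fit, an alternative added after that pattern was seen, 3 of 8 members were called lower, where 1821 of 31171 genes (5.84%) were. These were Lhx6 (log2 difference -0.69, adjusted p = 0.17), Dlx1 (-0.61, adjusted p = 0.18) and Dlx2 (-0.84, adjusted p = 0.23), with limma and Benjamini-Hochberg adjustment. Because the sets were read from the same values, this fit is no independent test. Within each set every mutant lay below every control for Lhx6, Dlx1 and Sox6 (3 of 8 members, and 8.28% of all genes tested). Lhx6 had log2 differences of -0.61 in numbers 1 to 3 and -0.77 in numbers 4 and 5, Dlx1 of -0.62 and -0.59, Sox6 of -0.11 and -0.54 and Dlx2 of -1.06 and -0.61. Satb1 had -0.15 and -0.44 and Dlx5 -0.73 and -1.37, while Maf (0.07 and -0.28) and Dlx6 (0.13 and -0.45) differed in sign. Erbb4 had -0.82 and -1.67.

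**Figure D1:**
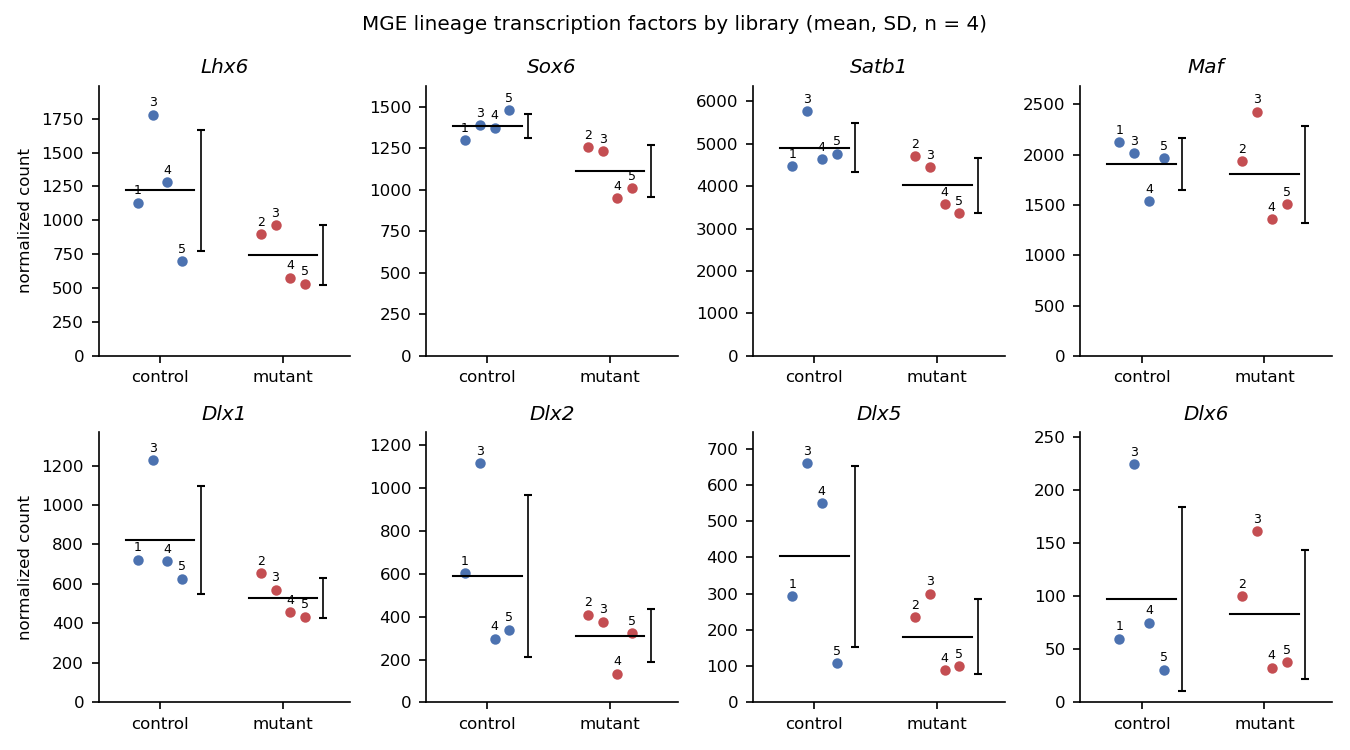
Normalized count of each lineage factor (linear axis from 0) in 4 control and 4 mutant libraries. Points are libraries with their replicate numbers, the horizontal line is the mean and the bar beside it 1 SD. The 4 mutant values of Sox6 (950.5 to 1259) sit below the 4 control values (1298 to 1479), and the groups of the other 7 genes overlap.

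Lhx6 (chromosome 2 of mm10, 36081953 to 36105409) had normalized counts of 1130, 1781, 1280 and 701.3 in control replicates 1, 3, 4 and 5 and of 899.4, 963.8, 577.2 and 531.9 in mutant replicates 2, 3, 4 and 5. Control replicate 5 lay among the mutants, and mutant replicates 4 and 5 lay below every control. The controls averaged 1223 ± 445.5 (SD, n = 4), the mutants 743.1 ± 220.1 (SD, n = 4). The log2 difference was -0.69 (standard error 0.32, 95% interval -1.40 to 0.02, limma p = 0.055, adjusted p = 0.58, exact permutation p = 0.11), a difference within the spread between libraries. The exact permutation test was two-sided, over the 70 divisions of the libraries, and allows no p below 0.029. Lhx6 met the call rule in 6 of 20 other settings. These were without control replicate 5 (-0.93), without mutant replicate 3 (-0.83), without mutant replicate 2 (-0.80), with library weights (-0.83), with a replicate block (-0.81) and with the set covariate. Its log2 difference was -0.48 without control replicate 3. In bulk pulldown libraries, fewer cells of a type, less RNA per cell and less of it recovered cannot be told apart.

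RefSeq (GRCm38.p6) lists 16 promoter entries for 5 of the 8 genes, namely Lhx6, Sox6, Satb1, Dlx1 and Dlx2. Printed below are the 250 bases before 1 start site each of Lhx6 and Dlx2, chosen because they are homeodomain genes and because these windows hold matches and no exon. The Lhx6 window (chr2:36104061-36104310, minus strand) lies within the gene but in no exon of GENCODE M21, before the start site at 36104060. The Dlx2 window (chr2:71546755-71547004, minus strand) lies in no annotated gene, before the start site at 71546754. Sequences run 5′ to 3′ on the gene's strand, and capitals mark matches to the letters searched.
Lhx6 upstream: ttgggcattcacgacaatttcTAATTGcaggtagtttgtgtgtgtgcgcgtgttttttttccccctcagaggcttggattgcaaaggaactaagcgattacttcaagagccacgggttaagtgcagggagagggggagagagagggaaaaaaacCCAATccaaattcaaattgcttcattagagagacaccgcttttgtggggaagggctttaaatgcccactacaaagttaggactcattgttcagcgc
Dlx2 upstream: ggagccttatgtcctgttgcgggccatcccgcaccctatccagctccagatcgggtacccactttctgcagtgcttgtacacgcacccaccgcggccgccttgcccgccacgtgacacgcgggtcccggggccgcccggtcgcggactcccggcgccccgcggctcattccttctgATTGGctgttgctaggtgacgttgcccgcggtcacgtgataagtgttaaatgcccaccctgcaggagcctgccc
The letters searched on both strands were TAATTA and TAATTG, cores bound by many homeodomain proteins that differ in the last letter, CAAGTG, a core bound by Nkx2-1, and the CCAAT box. None of the matches in the printed windows overlapped. TAATTG stood 229 bases before the Lhx6 start site and in 1 of the 16 windows, against 7.17% of 32851 windows of the same length over all genes. CCAAT stood 96 bases before the Lhx6 start site and, as ATTGG, 74 bases before that of Dlx2. It was in 5 of the 16 windows and in 33.8% of all. CAAGTG was in 2 of the 16 windows (11.6% of all) and TAATTA in 0 of 16 (4.84% of all). A match is a description of letters and not of a bound site.

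Sox6 (chromosome 7, 115470873 to 116038745) was the steadiest of the 8 in controls, with 1298, 1388, 1374 and 1479 normalized counts in control replicates 1, 3, 4 and 5. The mutants had 1259, 1235, 950.5 and 1012 in replicates 2, 3, 4 and 5. Every mutant value lay below every control value, and Sox6 was the only member of which this held (1 of 8, where 2.17% of all genes tested had all mutants lower and 2.76% all mutants higher). The exact two-sided permutation test gave p = 0.029, the smallest it allows. The log2 difference was -0.32 (standard error 0.19, 95% interval -0.74 to 0.10, limma p = 0.12, exact permutation p = 0.029), short of the 1.5-fold rule. The gap between the groups closed with quantile normalization, with scaling to library totals and with upper-quartile scaling, where 0 of the 8 genes were without overlap. Of all genes tested, 2.26%, 0.976% and 1.77% had all mutants lower in these settings. Without control replicate 5 or without mutant replicate 2, 3 of the 8 genes had all mutants lower, as had 5.46% and 3.58% of all genes tested.

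Satb1 (chromosome 17, 51736188 to 51833290) had the highest counts of the 8, with 4469, 5770, 4632 and 4768 in control replicates 1, 3, 4 and 5 and 4702, 4441, 3572 and 3371 in mutant replicates 2, 3, 4 and 5. Mutant replicate 2 lay among the controls and the other 3 mutants below all of them. The log2 difference was -0.29 (standard error 0.19, limma p = 0.14, exact permutation p = 0.11). Maf (chromosome 8, 115682942 to 115707837) had 2124, 2018, 1537 and 1964 in controls and 1937, 2429, 1356 and 1507 in mutants, in the same order of replicates. Its highest and its lowest value were both in mutants, and its log2 difference was -0.11 (standard error 0.23, 95% interval -0.61 to 0.40), which turned to 0.02 without mutant replicate 4.

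Dlx1 (chromosome 2, 71529445 to 71533980) had 723.9, 1226, 714.6 and 627.1 normalized counts in control replicates 1, 3, 4 and 5 and 654.9, 571.4, 456.3 and 433.6 in mutant replicates 2, 3, 4 and 5. Only mutant replicate 2 reached into the range of the controls. The log2 difference was -0.61 (standard error 0.28, 95% interval -1.21 to 0.00, limma p = 0.051, adjusted p = 0.58, exact permutation p = 0.057). This was just short of the call rule, which Dlx1 met with a pseudocount of 0.1, with no filter on low values and with a minimum mean of 100, as well as without control replicate 5 (-0.72) or mutant replicate 2 (-0.71). Dlx1 also met the rule with library weights (-0.64), with a replicate block (-0.76) and with the set covariate. Its log2 difference moved to -0.40 without control replicate 3.

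Dlx2, Dlx5 and Dlx6 had the lowest mean normalized counts of the 8, before division by gene length, and were the most variable. Dlx2 (chromosome 2, 71543409 to 71546755) had 603.9, 1116, 297.3 and 338.9 in controls and 409.5, 376.7, 133.3 and 321.5 in mutants, so that its highest library stood 8.37-fold above its lowest. Dlx5 (chromosome 6, 6877801 to 6882084) had 293.1, 660.0, 548.5 and 108.8 in controls and 235.1, 300.0, 89.2 and 99.2 in mutants. Its log2 difference of -1.05 was the lowest of the 8 but had a standard error of 0.61 and a 95% interval of -2.40 to 0.30, and it met the call rule without control replicate 5 (-1.58). Dlx2 had a log2 difference of -0.84 (standard error 0.49, limma p = 0.11, exact permutation p = 0.26), which moved to -0.46 without control replicate 3 and to -0.47 without mutant replicate 4. Dlx2 met the call rule with the set covariate and with a replicate block (-0.93). Dlx6 (chromosome 6, 6863334 to 6867970) had 60.0, 224.8, 75.1 and 30.9 in controls and 100.0, 161.6, 32.8 and 37.7 in mutants. Its log2 difference was -0.16 with a standard error of 0.75 (exact permutation p = 0.89), and it turned to 0.36 without control replicate 3, 0.18 without mutant replicate 4 and 0.11 without mutant replicate 5.

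Reads of several members may not be separable from those of transcripts that overlap them, since the counting is not stated to use strand. Overlap was taken over whole gene spans, introns included, and not over the constitutive regions counted. The antisense RNA Dlx6os1 covers all 4637 bases of Dlx6 and averaged 539.6 ± 224.1 normalized counts over controls (SD, n = 4), more than Dlx6 itself at 97.7 ± 86.7 (SD, n = 4). Dlx1as shares 3343 bases with Dlx1 and had 367.3 ± 93.1 (SD, n = 4) in controls. Of the list of Dlx partners and other Dlx genes, 3 of 6 passed the filter and 0 met the call rule, with log2 differences of 0.03 for Dlx6os1, -0.12 for Dlx1as and -0.72 for Dlx6os2. Dlx1as turned to 0.06 when scaled to library totals. Dlx3, Dlx4 and Evx2 were listed at 0 in all 8 libraries.

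Levels were set side by side after division by the length of each gene's longest GENCODE M21 transcript, although reads were counted on constitutive regions whose length was not used here. In controls Satb1 stood first, at 786.4 ± 93.9 normalized counts per kb (SD, n = 4), above Lhx6 at 351.4 ± 128.0 (SD, n = 4). Maf (300.5), Dlx5 (282.9), Dlx2 (238.2), Dlx1 (200.1) and Sox6 (159.8) followed in normalized counts per kb, each with a range over the controls that overlapped that of its neighbour. Dlx6 stood last, at 44.1 ± 39.1 normalized counts per kb (SD, n = 4), below Sox6 in 4 of 4 controls, although its range over the controls (14 to 101.4) overlapped that of Dlx5 (76.5 to 463.8). Only the first place, that of Satb1, was set apart from all others beyond the spread between controls.

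**Figure D2:**
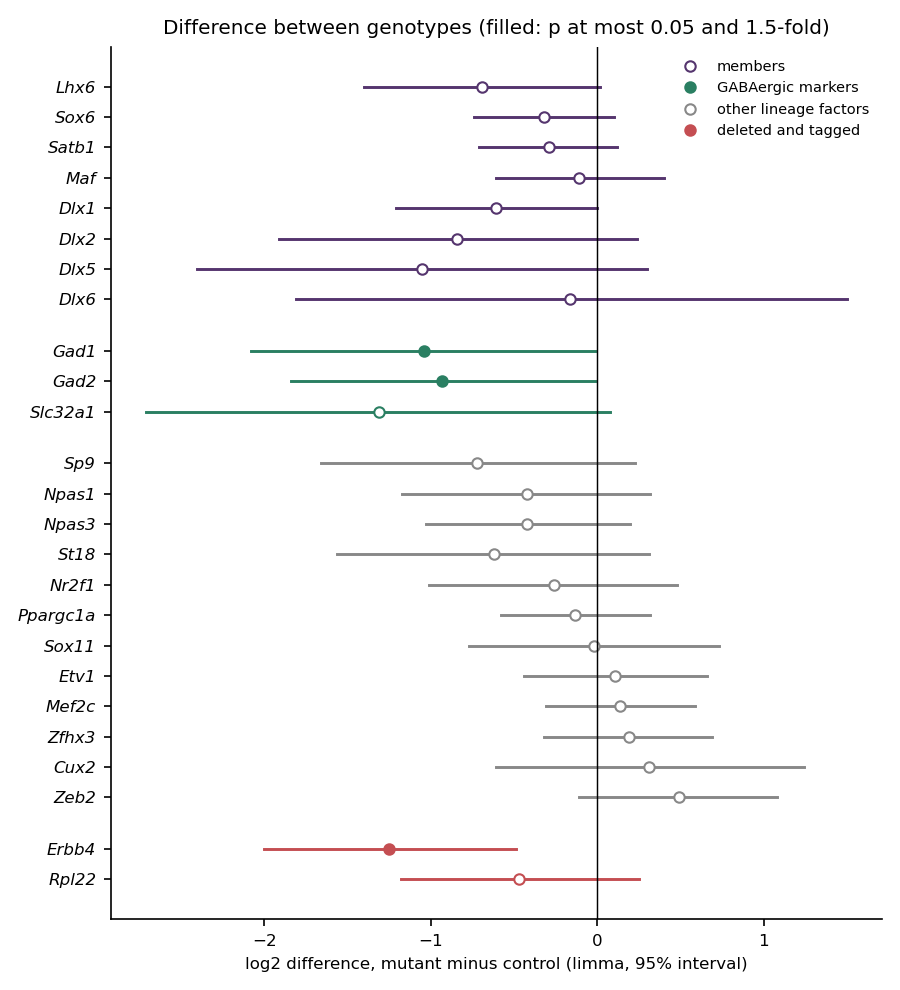
Log2 difference (mutant minus control, limma, points) with 95% intervals (lines) for the 8 lineage factors, 3 GABAergic markers, 12 of the 13 other lineage factors tested (Gsx2, with the widest interval, is left out), Erbb4 and Rpl22. Filled points met the call rule, as Erbb4 (-1.25), Gad1 (-1.04) and Gad2 (-0.93) did, and the interval of each lineage factor reached 0.

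The other transcription factors of the interneuron lineage gave a similar count. Of 15 genes, 13 passed the filter, 0 were called lower and 0 higher, and 8 lay below 0, with a median log2 difference of -0.13 that turned to 0.05 when libraries were scaled to their totals. Sp9, a zinc finger factor of ganglionic eminence progenitors, had a log2 difference of -0.72 (standard error 0.43). Zeb2, which turns newborn MGE cells toward the cortex, was at 0.49 (standard error 0.27) and Cux2, a homeobox factor, at 0.31. Zeb2 moved to 0.22 and Cux2 to -0.14 without the library labelled control replicate 1, and Sp9 to -0.43 without control replicate 3. Sp9 met the call rule with the set covariate, with library weights and without control replicate 5 or mutant replicate 2, Npas3 without mutant replicate 2, and Zeb2 without control replicate 5 and with scaling to library totals. Nkx2-1, which induces Lhx6 in the MGE and is shut off in interneurons bound for the cortex, reached at most 21.4 normalized counts and was at 0 in 5 of 8 libraries. Lhx8, an MGE factor of striatal and cholinergic neurons, reached at most 2.05.

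Of 3 GABAergic markers, Gad1 and Gad2 met the call rule. Gad1, which makes GABA, had a log2 difference of -1.04 (standard error 0.47, limma p = 0.049, adjusted p = 0.58), Gad2 of -0.93 (standard error 0.41, limma p = 0.047) and Slc32a1, the vesicular GABA transporter, of -1.31 (standard error 0.63, limma p = 0.062), each with an exact permutation p of 0.14. The calls of Gad1 and Gad2 were lost without the library labelled control replicate 1, control replicate 3, control replicate 4, mutant replicate 4 or mutant replicate 5, and when scaled to library totals, with upper-quartile scaling, with a pseudocount of 0.1, with no filter and without trend in the fit, and that of Gad1 also with a minimum mean of 100. Over the left-out libraries the log2 difference ran from -1.48 to -0.73 for Gad1, from -1.26 to -0.62 for Gad2 and from -1.74 to -0.82 for Slc32a1. Some calls of Gad1 and Gad2 were thus lost at a fold as large (Gad1 -1.03 without control replicate 4, Gad2 -0.97 without the library labelled control replicate 1). With the set of replicate numbers as a covariate all 3 markers were called lower. The same held with a replicate block, with library weights and without control replicate 5, mutant replicate 2 or mutant replicate 3. Each library's mean log2 value of the 3 markers was therefore subtracted from that of each member, to give a level per GABAergic RNA. On that scale the difference, mutant minus control, lay above 0 for 8 of 8 members with a median of 0.63, beside 93.8% of all genes tested above 0 and a median of 1.15 over them, and 0 of 8 met an exact two-sided permutation p of 0.05. Dlx6 came closest, at 0.94 (-6.65 ± 0.43 in controls and -5.72 ± 0.49 in mutants, SD, n = 4, exact permutation p = 0.057). With a pseudocount of 10 Dlx6 was at 0.95 and did meet that limit. Maf was at 0.99 (exact permutation p = 0.14), Satb1 at 0.80 (exact permutation p = 0.14) and Lhx6 at 0.40 (exact permutation p = 0.23), while Dlx5 was at 0.05 and Dlx2 at 0.26. The differences of Dlx5 and Dlx2 turned below 0 without some single libraries. Dlx5 was at -0.10 without control replicate 5, -0.08 without mutant replicate 5, -0.04 without the library labelled control replicate 1 and -0.03 without mutant replicate 3, and Dlx2 at -0.15 without mutant replicate 5 and -0.03 without control replicate 4. Within both sets of replicate numbers every mutant lay above every control for Lhx6, Satb1 and Dlx6 (3 of 8 members, and 35.9% of all genes tested). An exact permutation test within the sets, whose smallest p is 0.056, gave p = 0.056 for each of these 3, and Dlx2 (-0.19 in numbers 1 to 3 and 0.71 in numbers 4 and 5) and Dlx5 (0.14 and -0.05) differed in sign between the sets.

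**Figure D3:**
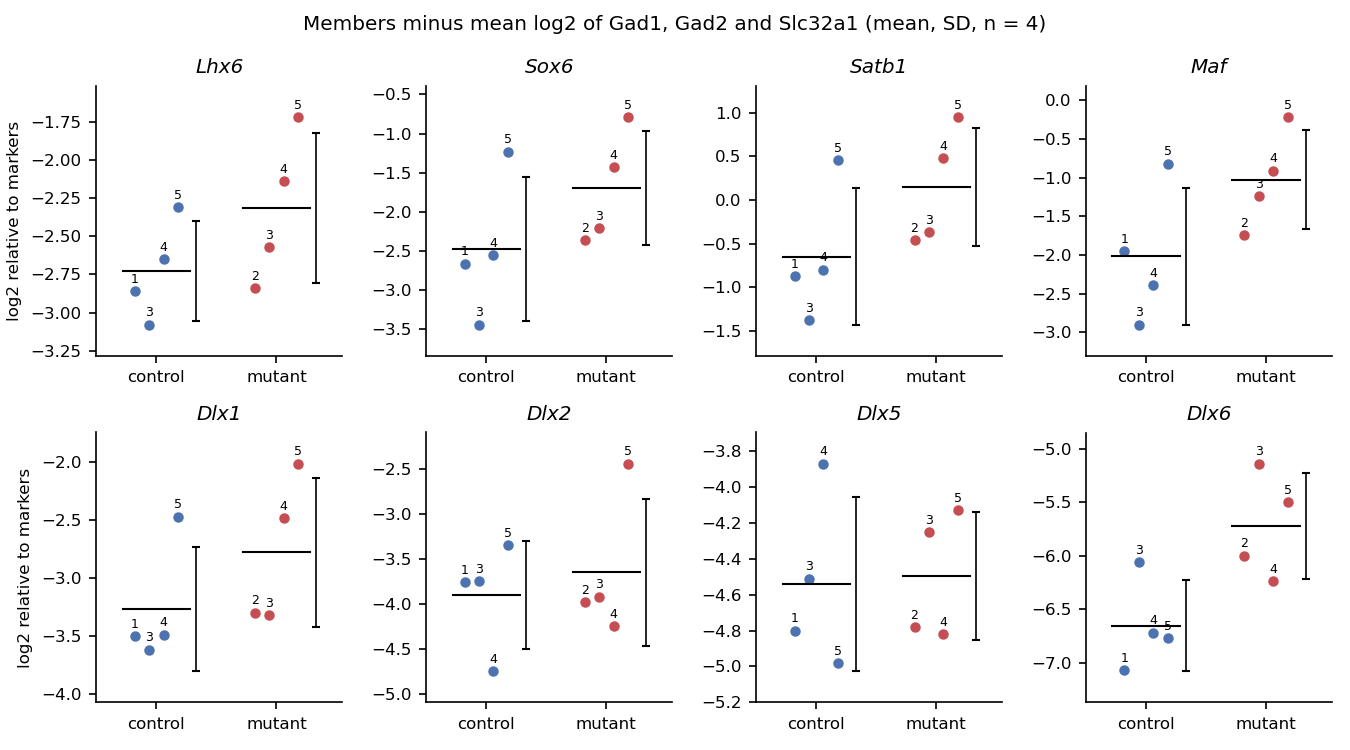
Each lineage factor's log2(normalized count + 1) minus the mean of Gad1, Gad2 and Slc32a1 in the same library (linear axis in log2 units, with a separate range per gene). Points are libraries with their replicate numbers, lines are means and bars 1 SD (n = 4). Mutant means lie above control means for 8 of 8 genes and the groups overlap for each.

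Libraries differed within genotype in a way that many members shared. Control replicate 3 held the highest value of 6 of the 8 genes, and mutant replicates 4 and 5 held the lowest of 4 and of 3. Relative to each gene's mean over the 8 libraries, the median of the members was 0.95 log2 units in control replicate 3, -0.10 in control replicate 5, -0.58 in mutant replicate 4 and -0.48 in mutant replicate 5. The GABAergic markers stood at 1.52, -0.59, -1.04 and -1.58 log2 units in the same 4 libraries. Sox6, Satb1 and Maf kept within a narrow range, with a highest library 1.56-fold, 1.71-fold and 1.79-fold above the lowest, against 3.35-fold for Lhx6, 7.40-fold for Dlx5 and 14.7-fold for Slc32a1.

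**Figure D4:**
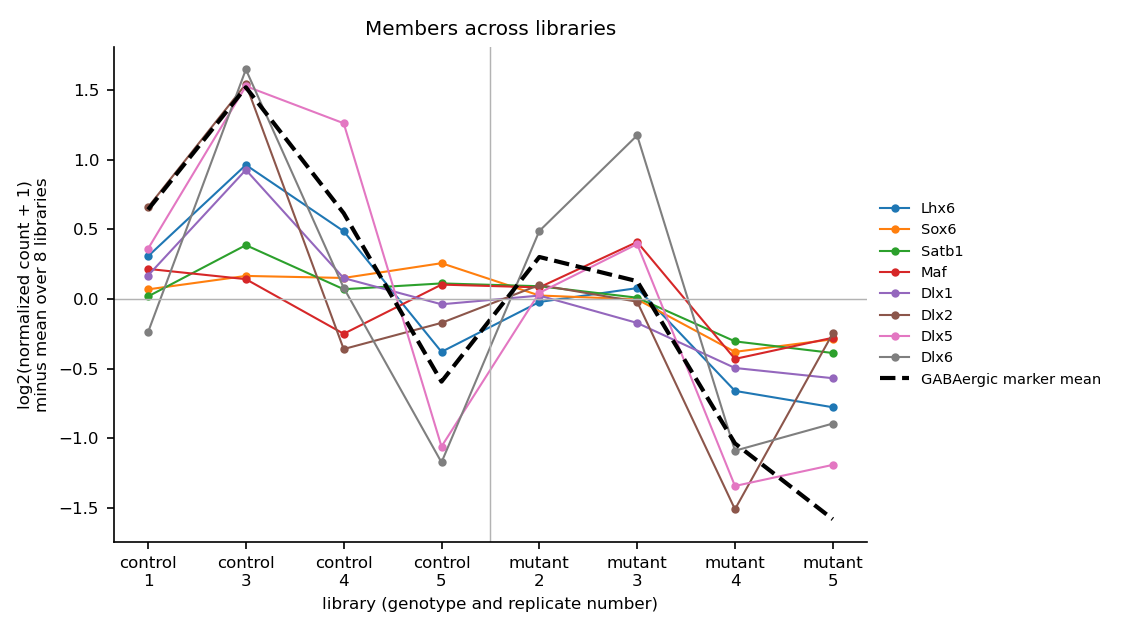
Log2(normalized count + 1) of each lineage factor minus its own mean over the 8 libraries, by library, with the mean of Gad1, Gad2 and Slc32a1 as a dashed black line. Lines only join the values of a gene, since libraries have no order. Control replicate 3 is the highest library of 6 members, and the marker mean runs from 1.52 there to -1.58 in mutant replicate 5.

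Across the 8 libraries, Pearson's r was above 0 for 28 of 28 pairs of members, with a median of 0.70, and still for 28 of 28 with a median of 0.66 after the genotype means were removed. The same share over pairs of other genes was not computed. Among 19137 genes, some outside the list followed Lhx6 more closely than any member did (Scamp5 at r = 0.997, Atp6v0a1 at r = 0.991). The count is thus not shown to be particular to the members. With Benjamini-Hochberg adjustment over the 28 pairs, 6 passed 0.05 in the exact permutation test of r and 1 did so by Spearman's rho. Lhx6 with Dlx5 was the closest pair (r = 0.97, exact permutation p = 9.9e-05, adjusted 0.0028, and rho = 0.95, exact permutation p = 0.0011, adjusted 0.032). Its r was 0.97 without control replicate 3 and mutant replicate 5, the libraries farthest from the median of Lhx6, and 0.97 for deviations from genotype means (exact permutation p = 0.0035, adjusted 0.097). Lhx6 with Dlx1 (r = 0.93, exact permutation p = 0.00079, adjusted 0.011, and rho = 0.90, p = 0.0046, adjusted 0.064) had r = 0.83 without those libraries and 0.88 for deviations. It passed in neither (exact permutation p adjusted 0.45 and 0.1). Satb1 with Dlx1 (r = 0.93, exact permutation p = 0.0021, adjusted 0.020, and rho = 0.76, p = 0.037, adjusted 0.15) had r = 0.91 without mutant replicates 4 and 5 and 0.88 for deviations, and also passed in neither (exact permutation p adjusted 0.45 and 0.1).

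The other 3 pairs that passed were less even. Dlx1 with Dlx5 had r = 0.83 (exact permutation p = 0.005, adjusted 0.035, and rho = 0.79, p = 0.028, adjusted 0.15) and r = 0.72 without control replicate 3 and mutant replicate 5. Lhx6 with Satb1 had r = 0.86 (exact permutation p = 0.0065, adjusted 0.036, and rho = 0.62, p = 0.11, adjusted 0.21) and r = 0.60 without the same libraries. Sox6 with Satb1 had r = 0.87 (exact permutation p = 0.0079, adjusted 0.037, and rho = 0.88, p = 0.0072, adjusted 0.068) but r = 0.45 without mutant replicates 4 and 5, so that relation rested on those libraries. No pair passed after adjustment without the libraries farthest from the median (0 of 28) or for deviations from genotype means (0 of 28). These tests have fewer arrangements than the test over 8 libraries, so a lone pair could pass only at the smallest p they allow. Lhx6 with Dlx5, at r = 0.97 in both, had exact permutation p = 0.0028 (adjusted 0.078) and 0.0035 (adjusted 0.097). Counts of 0 here therefore cannot tell lost tracking from a test too coarse to pass. For deviations from the means of the sets of replicate numbers, an alternative added later with exact permutation within sets, r was above 0 for 26 of 28 pairs with a median of 0.61, and 0 of 28 passed after adjustment. The permutation within sets, with 576 arrangements, has the same limit. Lhx6 with Dlx5 had r = 0.96 there (exact permutation p = 0.0069, adjusted 0.097), Lhx6 with Dlx1 and Satb1 with Dlx1 each 0.90, Sox6 with Satb1 0.89, Lhx6 with Satb1 0.79 and Dlx1 with Dlx5 0.75. For deviations from the means of each genotype in each set, r was above 0 for 21 of 28 pairs with a median of 0.40. The neighbours on a chromosome had r = 0.84 for Dlx1 with Dlx2 (exact permutation p = 0.018, adjusted 0.057, and rho = 0.69, p = 0.069, adjusted 0.19) and r = 0.83 for Dlx5 with Dlx6 (exact permutation p = 0.013, adjusted 0.051, and rho = 0.81, p = 0.022, adjusted 0.15). Lhx6 with Maf had r = 0.48 (exact permutation p = 0.22, adjusted 0.25, and rho = 0.57, p = 0.15, adjusted 0.21) and 0.01 for deviations from set means.

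**Figure D5:**
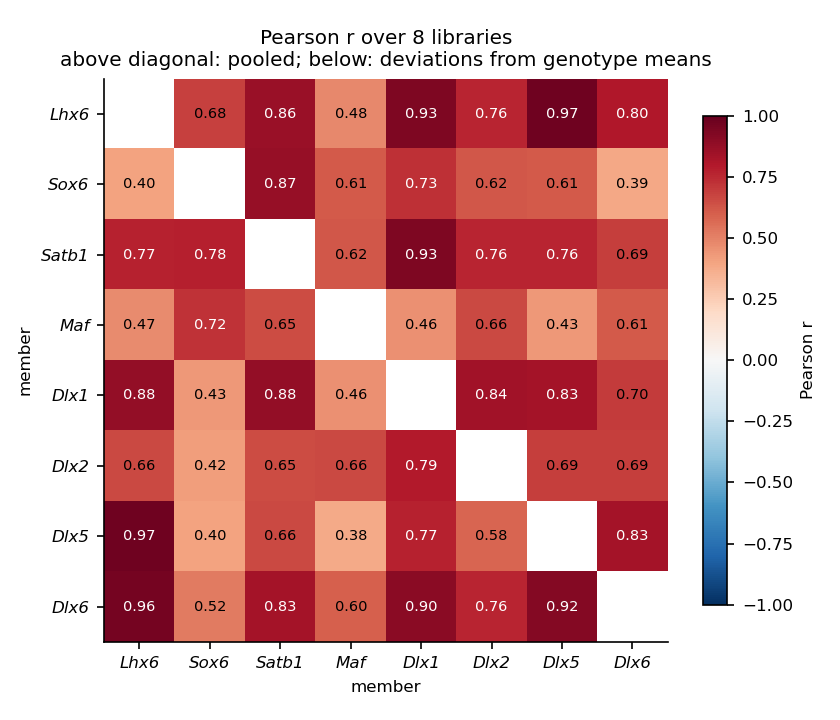
Pearson's r between members over 8 libraries, from log2(normalized count + 1). Cells above the diagonal use pooled values and cells below it deviations from genotype means. The colour scale runs from -1 to 1, and all 28 pairs are above 0 in both, with Lhx6 and Dlx5 at 0.97 in both.

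The members differed in how closely they followed the GABAergic markers, a relation looked at after the data were seen, in a family of 8. By Pearson's r Lhx6 came first (r = 0.98, exact permutation p = 9.9e-05, adjusted 0.00079), and by Spearman's rho Dlx1 did (rho = 0.98, exact permutation p = 0.0004, adjusted 0.0032). Lhx6 had rho = 0.95 (exact permutation p = 0.0011, adjusted 0.0046), and its r was 0.97 without control replicate 3 and mutant replicate 5 and 0.97 for deviations from genotype means. Dlx1 had r = 0.92 (exact permutation p = 0.00064, adjusted 0.0021), and 0.86 without those libraries, where it did not pass (exact permutation p = 0.025, adjusted 0.067). Dlx5 had r = 0.93 (exact permutation p = 0.00077, adjusted 0.0021) and rho = 0.86 (exact permutation p = 0.011, adjusted 0.029), and its r was 0.93 without them. Satb1 (r = 0.89, exact permutation p = 0.0042, adjusted 0.0083), Dlx6 (r = 0.80, p = 0.019, adjusted 0.031) and Dlx2 (r = 0.75, p = 0.029, adjusted 0.039) passed by r alone. They did not pass by rho (0.67 for Satb1, 0.67 for Dlx6 and 0.71 for Dlx2, with exact permutation p of 0.083, 0.083 and 0.058, each adjusted 0.11), without those libraries (r = 0.63, 0.65 and 0.78) or for deviations (r = 0.82, 0.92 and 0.65). Sox6 (r = 0.69, exact permutation p = 0.058, and rho = 0.60, p = 0.13) and Maf (r = 0.54, exact permutation p = 0.16, and rho = 0.57, p = 0.15) passed by neither. For deviations from the means of the sets of replicate numbers, 4 of 8 passed after adjustment, namely Lhx6 (r = 0.98), Dlx5 (r = 0.91), Dlx1 (r = 0.90) and Satb1 (r = 0.84), while Dlx6 was at 0.58, Dlx2 at 0.52 and Maf at 0.00. Once the means of each genotype in each set were removed, r was above 0 for 5 of 8 with a median of 0.64. Lhx6 was at 0.95 and Satb1 at 0.54 there, while Maf was at -0.77, Sox6 at -0.32 and Dlx2 at -0.05. With the marker mean as a covariate in the limma fit, the median log2 difference of the members was -0.09, with Lhx6 at -0.09, Dlx5 at 0.11 and Dlx6 at 1.13. In that fit 0 of 8 were called, where 2.65% of all genes tested were called lower and 2.37% higher.

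Among 19137 genes averaging 100 normalized counts or more, the 5 most like Lhx6 across the 8 libraries were Scamp5 (r = 0.997), a secretory carrier membrane protein, Slc3a1 (r = 0.994), a subunit of an amino acid transporter, Abcg4 (r = 0.994), a sterol transporter, Fam234b (r = 0.993) and Atp6v0a1 (r = 0.991), a subunit of the vesicular proton pump. Their r for deviations from genotype means ran from 0.99 to 1.00. Scamp5 averaged 73925 ± 36632 normalized counts over controls (SD, n = 4) and 39916 ± 15315 over mutants (SD, n = 4), and of the 5 only Abcg4 met the call rule (log2 difference -0.74). The 5 most like the mean of the 7 members above that minimum were Paqr4 (r = 0.994), Plppr4 (r = 0.992), Syngr1 (r = 0.992), Retreg2 (r = 0.991) and Slc39a13 (r = 0.989), with log2 differences from -0.80 for Syngr1 to -0.36 for Plppr4, and Paqr4, Syngr1 and Slc39a13 met the call rule.

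Markers of the labelled cells and of other cortical cells moved between libraries as well. The summed level of the 3 GABAergic markers was 30478, 59107, 29709 and 13404 normalized counts in control replicates 1, 3, 4 and 5 and 24593, 25204, 8263 and 5609 in mutant replicates 2, 3, 4 and 5. It was led by Slc32a1, and 2 of 3 markers were called lower, 3 without control replicate 5 and 0 without the library labelled control replicate 1, control replicate 3 or 4 or mutant replicate 4 or 5. Of 11 PV markers 7 were called lower (median -1.10, summed level 121978, 186894, 87483 and 49316 in controls and 66773, 67132, 33971 and 28973 in mutants, led by Cplx1), a count that was 9 without control replicate 5, 4 without the library labelled control replicate 1, 3 without mutant replicate 4 and 2 without control replicate 3 or mutant replicate 5. Fits without trend and with the GABAergic covariate called 4 and 1 of them. Of 12 SST markers 1 was called lower (median -1.04, summed level 366248, 646079, 229188 and 96908 in controls and 268332, 271348, 75943 and 34771 in mutants, led by Sst), and the count was 6 without control replicate 5, 4 without mutant replicate 2 or 3, 2 without the library labelled control replicate 1 and 0 without control replicate 3 or 4 or mutant replicate 4 or 5. It was 9 with the set of replicate numbers as a covariate, 7 with library weights, 2 with a pseudocount of 10 and 0 without trend or with the GABAergic covariate. Markers of the caudal ganglionic eminence, whose interneurons lack Lhx6, had 0 of 11 called and a median of -0.48. They were led by Reln, which is also on the SST list and so does not mark these cells alone. The count called lower was 3 without control replicate 4 or with the set covariate and 2 without control replicate 5 or with library weights.

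RNA of cells that do not make Lhx6 was also recovered. Slc17a7, the most abundant of 11 excitatory markers measured, averaged 109118 ± 15017 normalized counts over controls (SD, n = 4) and 98312 ± 9444 over mutants (SD, n = 4), and the list's summed level lay between 131942 and 176711 in all 8 libraries. Mbp led the 10 oligodendrocyte markers, whose summed level was 666183, 358138, 227901 and 321226 in controls and 229772, 198772, 250749 and 284492 in mutants, with 3 called lower. That count was 0 without the library labelled control replicate 1, 7 without control replicate 4 and 1 without control replicate 3 or mutant replicate 2, 3 or 4. It was also 0 when scaled to library totals, without trend in the fit and with library weights, 1 with the GABAergic covariate and 5 with the set covariate. Of 10 endothelial and mural markers, led by Cldn5, 3 were called higher (median 0.48), with a summed level of 163864, 257748, 199518 and 175808 in controls and 261094, 244835, 248812 and 238662 in mutants. Without the library labelled control replicate 1, or without mutant replicate 4 or 5, 0 were, while 6 were when scaled to library totals, 4 without control replicate 3, and 1 without trend in the fit or with the GABAergic covariate. Markers of astrocytes (led by Aldoc), oligodendrocyte precursors (Olig1) and microglia (Csf1r) had 0 of 10 called each, with medians of -0.11, -0.35 and -0.44, and without control replicate 4 the counts called lower were 2, 1 and 4. Striatal projection neuron markers, led by Foxp1, had 1 of 9 called higher (0 without the library labelled control replicate 1 or mutant replicate 3 or with library weights, and 2 when scaled to library totals), and Isl1 reached at most 4.95 normalized counts. Nuclear retained RNAs, led by Kcnq1ot1, had 0 of 4 called. The medians of excitatory, astrocyte and striatal markers turned above 0 when libraries were scaled to their totals, to 0.03, 0.07 and 0.02. The part of these cell types in the values of the lineage factors was not tested.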

How the data were processed

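RNA bound to HA-tagged ribosomes in cortical synaptosomes was measured in 8 libraries, grouped by the genotype in their labels. The authors aligned reads to mm10 with STAR 2.4.0, counted reads on constitutive regions of Fast DB genes and deposited this signal as counts divided by DESeq2 size factors, per the labels and the methods of the study. The counting strand is not given in the sources used here.

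The limma package (3.58.1 in R 4.3.3, lmFit then eBayes with trend) was fitted to log2(normalized count + 1), a scale that understates changes of low genes, for genes averaging 10 or more in either genotype. Calls took a limma p no higher than 0.05 before adjustment together with a change of 1.5-fold or more. Adjusted p-values use the Benjamini-Hochberg method over all genes tested. Exact two-sided permutation tests covered single values and correlations. Replicate libraries are biological per the methods. In counts simulated independently for each gene, the fit called 87.5% of 200 planted 3-fold changes and 4.38% of unchanged genes. Smaller changes and shifts shared by the genes of a library were not simulated.

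Named genes were the members, Erbb4, Rpl22, GABAergic markers, genes of the Dlx and lineage factor lists, the most abundant gene and near-zero genes of each cell type list, and the 5 genes most like Lhx6 and most like the members' mean. Some genes of the lists are not reported here and were left out of the lists' counts. The members and lists were chosen with earlier results of these data known. Promoter windows came from RefSeq, annotation and lengths from GENCODE M21. The sums of values over the smallest value above 0, 51010687 to 80226984 per library, are given as a measure of depth. The precision that depth gives was not measured. Count models were left out, as whole reads were not taken as recovered. Alternatives covered pseudocounts, filters, scalings, limma settings, covariates (the GABAergic marker mean and the set of replicate numbers, 1 to 3 or 4 to 5) and left-out libraries. The study names sequencing batches but the labels give no library's batch.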

Additional observations from a re-analysis of the deposited data

Results flagged for a closer look

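In each genotype, the gap between the most distant library and its nearest neighbour was divided by the range of the 4 libraries, for every named gene. It exceeded Dixon's critical value at the 0.05 level in 7 of 104 groups, where chance gives about 5 in 100. Among the members this held for Dlx1 in controls (0.838), where control replicate 3 had 1226 normalized counts and the next library 723.9.

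Mutant replicate 3 stood apart for Dlx6os1 (0.859), at 844.7 against at most 456.5, and for Zeb2 (0.844), at 12058 against at least 14442. Mutant replicate 2 stood apart for Npas3 (0.921), at 1079 against at most 563.9. Nkx2-1 in controls (1.000), Isl1 in controls (1.000) and Gsx2 in mutants (1.000) were above 0 in a single library each, control replicate 4 at 6.01, control replicate 5 at 4.95 and mutant replicate 4 at 27.7.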

How the results depend on the processing

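Members called lower numbered 0 as deposited, beside 3.17% of all genes tested. The count was 1 (Dlx1) with a pseudocount of 0.1 (2.96% of all genes), with no filter on low values (2.5%) or with a mean of at least 100 (4.25%). It was 3 with library weights (Lhx6, Dlx1, Dlx5, beside 5.24%) and 3 with the set of replicate numbers as a covariate (Lhx6, Dlx1, Dlx2, beside 5.84%). With single libraries left out it was 0 to 3, beside 1.65% to 6.35%. Members called higher numbered 0 under all 20 alternatives, where 1.98% to 7.24% of all genes tested were called higher. The median of the members ran from -0.61 to -0.09 with all libraries and from -0.65 to -0.36 without 1 library. Members without overlap numbered 0 with quantile normalization and with both scalings chosen after the data were seen (library totals, upper quartile). In these settings 2.26%, 0.976% and 1.77% of all genes tested had all mutants lower. Without 1 library the members numbered 1 to 3, beside 2.88% to 5.46% of all genes with all mutants lower. Genes called lower numbered 1633 with library weights, 1821 with the set covariate, 417 when scaled to library totals and 515 to 1977 without 1 library. Genes called higher numbered 1997 with library weights, 738 with the GABAergic covariate, 2263 when scaled to totals and 619 to 1792 without 1 library. The median of members relative to GABAergic markers ran from 0.35 to 0.83 without 1 library. Of 28 pairs, 6 passed by Pearson's r, 1 by Spearman's rho, 0 without the libraries farthest from the median, 0 for deviations from genotype means and 0 for deviations from set means, where Maf with Dlx5 and with Dlx6 turned to -0.04. The counts of 0 come from tests with few arrangements, in which a lone pair passes only at the smallest p allowed. Quantile normalization gave 7 pairs. Lhx6 with Dlx6 (r = 0.84) and Dlx5 with Dlx6 (r = 0.86) passed there, and Lhx6 with Satb1 (r = 0.74) did not.

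Both genotypes have libraries numbered 3, 4 and 5. Deviations of same-numbered libraries correlated at 0.10, 0.098 and 0.082 over the genes tested, and control replicate 5 correlated slightly better with mutant replicate 4 (0.085), so the numbers were not taken as pairs. Correlations were above 0 within the numbers 1 to 3 and within 4 and 5 and below 0 across, and whether the study's sequencing batches split that way is not known. With a replicate block, 1719 genes (5.51%) were called lower and 1445 (4.64%) higher, and 3 members lower (Lhx6, Dlx1, Dlx2). The block called 12 of 12 SST markers lower, 3 caudal ganglionic eminence markers lower, 0 oligodendrocyte markers lower and 0 endothelial and mural markers higher, and it called Sp9 and Npas3 lower. Under it Dlx6os1 was at -0.22, Etv1 at -0.04, Cux2 at -0.01 and Sox11 at 0.01.

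Of 159 log2 differences of members under alternatives, 150 lay below 0. With the GABAergic covariate the sign turned for Maf (0.09), Dlx5 (0.11), Dlx6 (1.13), Dlx1as (0.17), Sp9 (0.12), Npas1 (0.22), Cux2 (-0.08), Sox11 (0.38) and Zfhx3 (-0.06). Scaled to totals it turned for Maf (0.08), Dlx6 (0.02), Dlx1as (0.06), Ppargc1a (0.05) and Sox11 (0.16). With library weights it turned for Dlx6os1 (-0.40) and Cux2 (-0.01), with quantile normalization (0.01) and upper-quartile scaling (0.03) for Sox11. Without 1 library, log2 differences ran from -0.26 to 0.02 for Maf, -0.58 to 0.36 for Dlx6, -0.38 to 0.04 for Dlx1as, -0.29 to 0.24 for Dlx6os1, -0.03 to 0.28 for Etv1, -0.14 to 0.60 for Cux2 and -0.20 to 0.21 for Sox11. Relative to GABAergic markers they ran from -0.15 to 0.46 for Dlx2 and -0.10 to 0.27 for Dlx5. Without the libraries farthest from the median, r turned for Sox6 with Maf (-0.47), Dlx5 (-0.19) and Dlx6 (-0.49), and for Maf with Satb1 (-0.11), Dlx1 (-0.16) and Dlx5 (-0.26). The cause was not tested. Count models (edgeR, DESeq2) and TMM scaling, planned as alternatives, were not run because whole reads were not taken as recovered. The low levels of Dlx6, Gsx2 and Nkx2-1 limit what their values show.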
